A study of Mus musculus with 28 samples.

Results

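Polycomb repressive complex genes were followed in E14 mouse embryonic stem cells (mESCs) in which the histone chaperone FACT had been depleted. The 10 genes were chosen by name and matched by gene ID: the PRC2 core subunits Ezh2, Eed and Suz12, the PRC2 accessory subunits Jarid2, Mtf2 and Phf19, the PRC1 ligases Ring1 and Rnf2, and the PRC1 subunits Cbx7 and Pcgf6. All 10 had a value among the 15384 genes of the RNA-seq data. FACT is a dimer of SSRP1 and SUPT16 that takes nucleosomes apart and rebuilds them ahead of and behind RNA polymerase. The control group was E14 mESCs that received a scramble shRNA and the Ssrp1 KD group was E14 mESCs that received shRNAs against Ssrp1, both under puromycin selection, with 4 RNA-seq libraries each and ERCC spike-in RNA in all of them. No allele or other treatment was given for either group. ChIP-seq for SSRP1 and SUPT16 and 2 RNA-seq libraries of the chromatin fraction came from E14 mESCs with no knockdown given.

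Polycomb proteins keep developmental genes silent. PRC2 methylates histone H3 at lysine 27, a reaction catalysed by EZH2 or EZH1 that needs EED and SUZ12, while accessory subunits bring the complex to CpG islands. PRC1 ubiquitinates histone H2A through RING1 or RNF2, and is called canonical when a CBX protein ties it to methylated H3 and variant when it holds RYBP or YAF2 instead. In mESCs both complexes sit on the promoters of lineage regulators that are kept off until differentiation.

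The control libraries held 4602278 to 6680919 reads on genes and the KD libraries 9433193 to 19856032. Ssrp1 itself, the targeted gene, had 235 ± 17.6 (SD, n = 4) in the control and 26.1 ± 2.13 (n = 4) in the KD libraries on the library-size scale, a log2 fold change of -3.15 (adjusted p = 1.18e-22 by limma). The study's methods call the 4 libraries of a group biological replicates, without saying how the cultures were kept apart. Values on that scale are reads divided by a library size set by the authors, and comparisons between libraries rest on that size. The values do not sum to equal totals: 825584 to 909417 in the control and 1.14e+06 to 1.18e+06 in the KD libraries. A gene with the same share of that total in every library would thus lie higher in the KD libraries on this scale. Here a gene is said to have risen or fallen when its adjusted p (limma, Benjamini-Hochberg over all 15384 genes) was below 0.01, and is called changed when its log2 fold change also passed 1 in size. By both thresholds 1242 genes rose and 3163 fell, 28.6% of all genes. That split was 7394 up and 1082 down with spike-in scaling, 1518 up and 1656 down after quantile normalisation and 1142 up and 961 down among genes with a mean value of at least 10. Spike-in scaling moved the median log2 fold change of all genes from -0.03 to 0.95, so spike-in values are also given relative to that median. The spike-in scaled values summed to 503414 to 782336 in the control and 1.07e+06 to 2.16e+06 in the KD libraries. These sums went broadly with the reads on genes of each library. The part of depth in rises on the spike-in scale was not tested. All 8 listed mESC markers rose and their summed value went from 1493 to 1597 in the control to between 3987 and 4380 in the KD libraries. The 4 of 6 fibroblast markers with a value fell together, from summed values of 45.3 to 56.3 down to 7.32 to 9.28; Dcn and Lum had no value. Of the 5 of 6 neural markers with a value 1 rose and 4 fell, and their sum went from 83.7 to 107 up to 145 to 155.

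Of the 10 Polycomb genes, 7 rose and none fell, by 0.24 to 1.02 on the log2 scale (adjusted p, limma). They were Mtf2, Cbx7, Suz12, Eed, Pcgf6, Ezh2 and Jarid2. Of all genes 35.4% rose and 37.3% fell by the same rule. The 7 genes were also those in which every KD library lay above every control library, as in 35.8% of all genes; none had every KD library below the controls, as in 37.5%. Only Mtf2 passed both thresholds, against 8.07% of all genes that did so upwards and 20.6% downwards. The median log2 fold change of the 10 genes was 0.46, against -0.03 for all genes. Low genes weigh on these figures for all genes. Of the 10 genes 9 had a mean value of at least 10, of which 7 rose and none fell, with a median of 0.49. Of all 10765 genes with such a mean 5198 rose and 2812 fell, with a median of 0.22. Rnf2, Phf19 and Ring1 did not pass. As shares of the unequal totals given above, Jarid2 would be lower in every KD library, and the groups of Ezh2 and Pcgf6 would overlap. Mtf2, Cbx7, Suz12 and Eed would still be higher in every KD library. No fit was made on such shares. The counts of the 10 genes by the adjusted p turned with the scaling. After quantile normalisation 6 of the 10 rose, Ring1 among them, and Jarid2 and Rnf2 fell. Of all 15384 genes 5187 rose and 4486 fell after it. With spike-in scaling 8 of the 10 rose, Rnf2 among them, while 8616 of all genes rose and 1346 fell. The mESC markers rose and the fibroblast markers fell in the same libraries, and their part in these results was not tested.

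**Figure D1:**
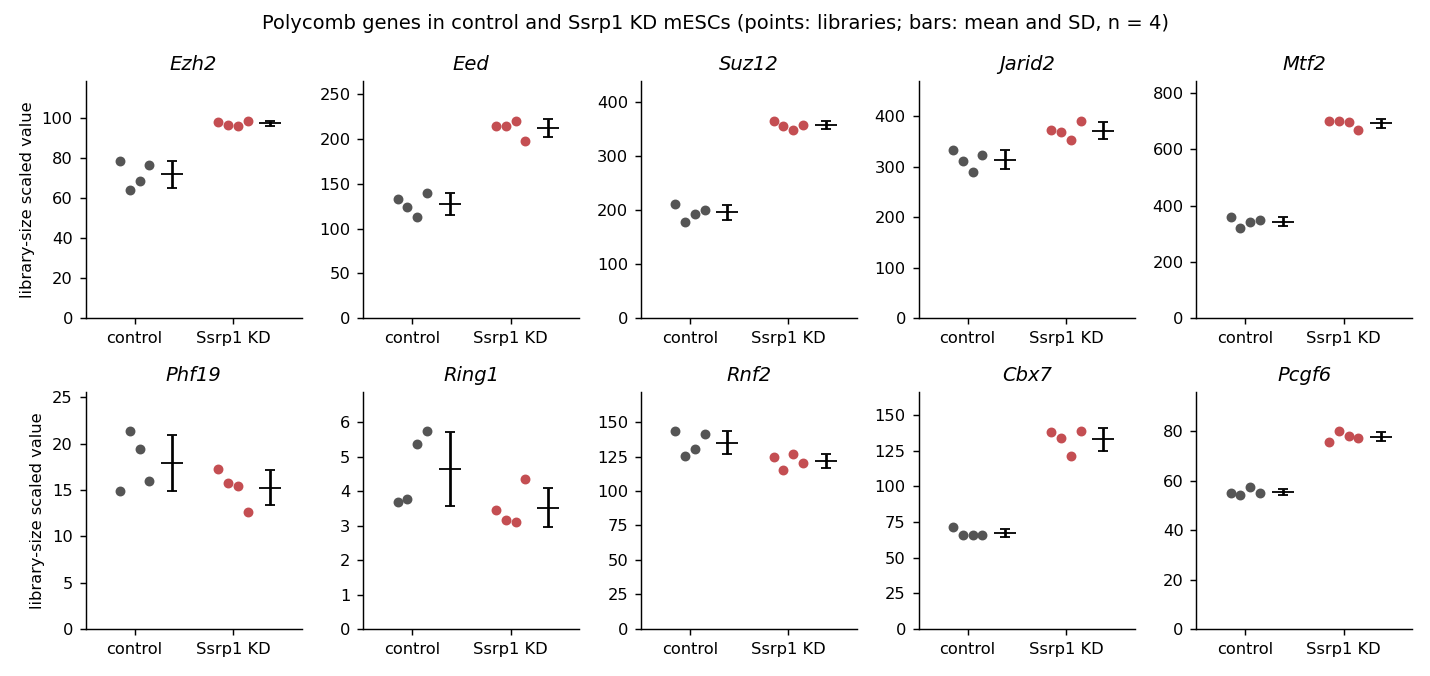
Library-size scaled value of each Polycomb gene (vertical axes, each from 0) in the 4 control and 4 Ssrp1 KD libraries; points are libraries and bars the mean and SD. The KD points of Mtf2 (669 to 703) lie well above its control points (322 to 359), while the groups of Phf19, Ring1 and Rnf2 overlap.

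The 3 core subunits of PRC2 rose to different extents. Suz12, the scaffold of the complex, stood at 211, 178, 193 and 200 in the control libraries and at 366, 356, 348 and 358 in the KD libraries. The lowest KD library was far above the highest control library. The log2 fold change was 0.87 (SE 0.057, adjusted p = 1.3e-13 by limma). Eed, which binds methylated H3 and stimulates the enzyme, was at 133, 124, 112 and 140 against 215, 215, 221 and 198, a log2 fold change of 0.74 (SE 0.063, adjusted p = 3.72e-11 by limma). After quantile normalisation it was 0.27 for Eed and 0.29 for Suz12. Ezh2, the main methyltransferase of dividing cells, moved least, from 78.7, 64.0, 68.7 and 76.6 to 98.1, 96.8, 95.9 and 98.9. Its log2 fold change was 0.44 (SE 0.066, adjusted p = 1.04e-06 by limma), and after quantile normalisation it was 0.11 with an adjusted p of 0.0951 by limma, so this call was lost. Ezh1, the paralog of Ezh2 that is used more in resting cells, had 30.1 ± 3.01 and 35.7 ± 3.01 (SD, n = 4 each) and did not pass (adjusted p = 0.0143 by limma).

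The accessory subunits of PRC2 went separate ways. MTF2 and PHF19 are Polycomb-like proteins that bind unmethylated CpG-rich DNA, and JARID2 marks the other form of PRC2. Mtf2 was at 359, 322, 341 and 348 in the control libraries and at 702, 703, 698 and 669 in the KD libraries. It thus doubled on the library-size scale, with a log2 fold change of 1.02 (SE 0.055, adjusted p = 2.6e-15 by limma). This value lies at the fold threshold: without control replicate 2 it was 0.99 and the call was lost, after quantile normalisation it was 0.33, and a test against the threshold itself (limma treat) did not pass. Jarid2 was at 332, 311, 290 and 323 against 373, 369, 352 and 391, a log2 fold change of 0.24 (SE 0.057, adjusted p = 0.000358 by limma) that turned to -0.37 after quantile normalisation. Phf19 was far lower, at 14.8, 21.3, 19.4 and 16.002 against 17.3, 15.7, 15.4 and 12.6. The groups overlapped and its log2 fold change of -0.22 (SE 0.12, adjusted p = 0.112 by limma) did not pass; with spike-in scaling it was 0.78, or -0.17 relative to the median of all genes.

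The ligases of PRC1 showed no rise on the library-size scale. Rnf2, also known as RING1B and the main H2A ligase of mESCs, was at 143, 125, 131 and 141 in the control and at 124, 115, 127 and 121 in the KD libraries. The ranges overlapped, and the log2 fold change was -0.15 (SE 0.059, adjusted p = 0.0238 by limma). With spike-in scaling it rose by 0.87 (adjusted p = 0.00399 by limma), or -0.08 relative to all genes, and after quantile normalisation it fell, at -0.56 (adjusted p = 8.34e-09 by limma). Without control replicate 2 the adjusted p was 0.00827 (limma, log2 fold change -0.19), again a fall. Ring1, also known as RING1A, was barely expressed: 3.68, 3.79, 5.38 and 5.74 in the control, from 22 to 42 reads, and 3.46, 3.17, 3.11 and 4.35 in the KD libraries. Its log2 fold change was -0.34 (SE 0.21, adjusted p = 0.127 by limma), 0.56 with spike-in scaling and 0.74 after quantile normalisation, so its direction turned with the scaling.

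Cbx7 and Pcgf6 stand for the canonical and the variant form of PRC1. Cbx7, the chromobox protein that dominates canonical PRC1 in mESCs, was at 71.7, 66.3, 65.7 and 66.2 in the control and at 138, 134, 121 and 139 in the KD libraries. All KD libraries were far above the controls, and the log2 fold change was 0.97 (SE 0.061, adjusted p = 6.46e-14 by limma), just under the fold threshold. It was 1.00 without control replicate 1 and 1.02 without KD replicate 3. Pcgf6, the subunit of the variant complex that also holds MGA, MAX and L3MBTL2, was at 55.1, 54.2, 57.4 and 54.98 against 75.8, 80.0, 78.2 and 77.3. The libraries of each group were close together and the log2 fold change was 0.49 (SE 0.062, adjusted p = 5.91e-08 by limma). After quantile normalisation it was 0.18 for Pcgf6 and 0.62 for Cbx7.

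**Figure D2:**
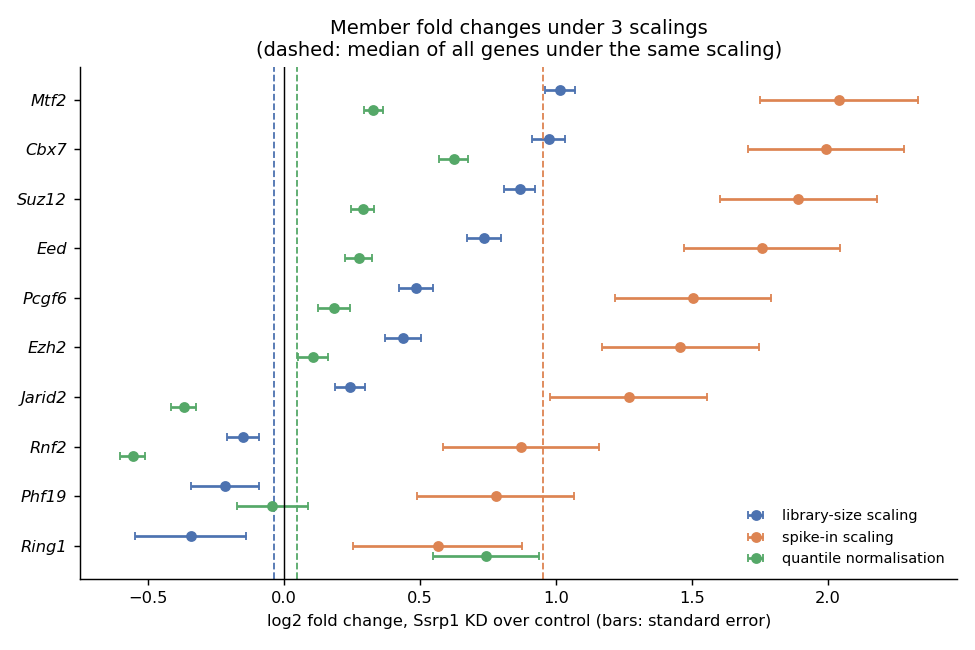
Log2 fold change of each Polycomb gene, Ssrp1 KD over control (horizontal axis; bars are the standard error), with library-size scaling, spike-in scaling and quantile normalisation; dashed lines mark the median of all genes under each (-0.03, 0.95 and 0.05). The 10 genes are above 0 with spike-in scaling, while Rnf2, Jarid2 and Phf19 are below 0 after quantile normalisation.

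The rising genes were also set against the median of all genes under each scaling. On the library-size scale Mtf2 stood 1.05, Cbx7 1.01 and Suz12 0.90 above that median, and on the spike-in scale 1.09, 1.04 and 0.94 above it. After quantile normalisation Cbx7 stood 0.57 above it, Mtf2 0.28 and Suz12 0.24. On the library-size scale the median was 0.22 among the 10765 genes with a mean value of at least 10, and these genes stood less far above that. A correction for exon length gave log2 fold changes of 1.27 for Mtf2, 1.06 for Suz12 and 1.04 for Cbx7.

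Ratios between 2 subunits within a library depend on library-size or spike-in scaling only through the pseudocount of 0.5, and asked whether the make-up of the complexes' transcripts shifted. They are given as log2 ratios of values per kb of exon, and 8 pairs were tested by the two-sided exact permutation test of 4 against 4 libraries, whose smallest p is 0.0286. In 6 pairs the groups did not overlap, each at that smallest p (0.0381 adjusted over the 8 pairs). Such separation was common among single genes, 35.8% upwards and 37.5% downwards. No share over other pairs of genes was computed, so the count of 6 has no background. Phf19/Mtf2 went from -3.75 ± 0.30 in the control to -4.98 ± 0.15 in the KD libraries (SD, n = 4 each), a difference of -1.23 that was -0.37 after quantile normalisation. Jarid2/Mtf2 went from -0.36 ± 0.078 to -1.13 ± 0.090, a difference of -0.77. In control libraries the Jarid2 transcript was thus at 0.778 of the Mtf2 level per kb and in KD libraries at 0.456.

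Within the PRC2 core, Suz12/Ezh2 rose from 0.73 ± 0.048 to 1.15 ± 0.019, a difference of 0.43 that was 0.18 after quantile normalisation. Eed/Ezh2 rose by 0.30, and this pair gave an exact permutation p of 0.0571 after quantile normalisation, after the exon length correction and without either control replicate 1 or 3 or KD replicate 1, 2 or 3. In PRC1, Cbx7/Pcgf6 rose by 0.49, from -0.18 ± 0.076 to 0.30 ± 0.11, and Cbx2/Cbx7 fell by 0.57, from -1.60 ± 0.096 to -2.17 ± 0.049, with a difference of -0.33 after quantile normalisation. CBX2 is the chromobox protein that compacts chromatin, and Cbx2 itself rose with a log2 fold change of 0.40 (adjusted p = 9.32e-05 by limma). For Ring1/Rnf2 and Ezh1/Ezh2 the groups overlapped, with differences of -0.19 and -0.20 and exact permutation p of 0.257 and 0.286, and after quantile normalisation the differences were 1.30, now at the smallest p of the exact permutation test, and 0.013.

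**Figure D3:**
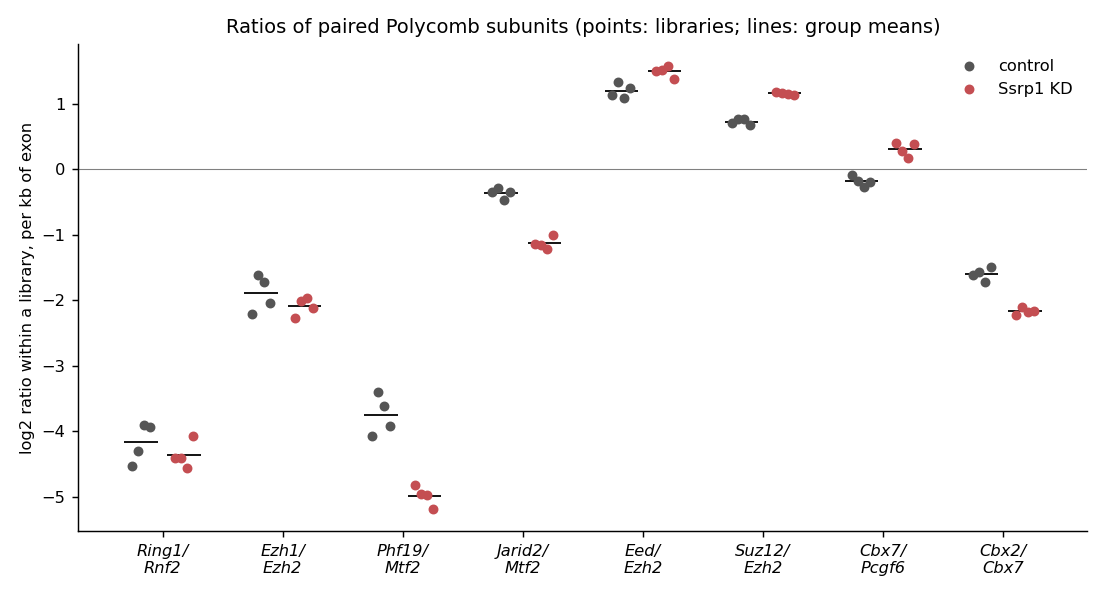
Log2 ratio of paired subunits per kb of exon (vertical axis) in each control and Ssrp1 KD library; points are libraries and lines group means. Phf19/Mtf2 and Jarid2/Mtf2 are lower in all 4 KD libraries, by 1.23 and 0.77 on average, while Ring1/Rnf2 and Ezh1/Ezh2 overlap.

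Among 45 other Polycomb subunits and co-factors, 14 rose and 18 fell by the adjusted p, against 35.4% and 37.3% of all genes, and 11 passed both thresholds, 1 up and 10 down, against 8.07% and 20.6%. The shares that fell are near those of all genes, which include many low genes. Of the 45, 41 had a mean value of at least 10, of which 1 rose and 8 fell past both thresholds. Of all 10765 genes with such a mean 1142 rose and 961 fell past both. No test was made of these counts. The median log2 fold change of the 45 was -0.11. The gene that rose past both was Bap1, the deubiquitinase that removes the PRC1 mark from H2A, at 63.6 ± 3.50 and 145 ± 2.95 (SD, n = 4 each), a log2 fold change of 1.18. The 10 that fell past both included Fbrs, Auts2, Scmh1, Mbd6 and Phc2. Fbrs and Auts2, subunits of variant PRC1, were at 17.6 ± 1.73 and 14.2 ± 3.47 in the control and at 5.73 ± 0.53 and 4.59 ± 0.83 in the KD libraries, log2 fold changes of -1.54 and -1.52. Scmh1 and Phc2, SAM-domain proteins of canonical PRC1, had log2 fold changes of -1.52 and -1.36. For Mbd6, which binds the BAP1 complex, it was -1.43. With spike-in scaling 19 of the 45 passed both thresholds, all of them upwards, and these 5 genes lay between -0.56 and -0.35, with none passing. After quantile normalisation they lay between -1.50 and -0.90. The rise of the mESC markers and the fall of the fibroblast markers went along with these changes too, and their part was not tested.

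Genes listed by name as Polycomb targets in mESCs were mostly low, though Tbx3 had a control mean of 92.1. Polycomb binding to them was not examined here. Of 27 such genes, developmental regulators apart from the cell cycle gene Cdkn2a, 15 had a value. The other 12, among them Foxa2, T, Pax3 and Olig2, had none and were not analysed here. By the adjusted p 12 of the 15 fell and 1, Tbx3, rose, against 37.3% and 35.4% of all genes; 9 fell past both thresholds, against 20.6% of all genes, and none rose past both. The median log2 fold change was -1.46, against -0.03 for all genes. Since genes enter the data only when read in some libraries, this count does not speak for the whole list. Low genes fell more often on this scale: 3163 of all 15384 genes fell past both thresholds, but only 961 of the 10765 with a mean value of at least 10. Only 3 of the 15 targets had such a mean, and 1 of them fell past both. The share of all genes is thus not a matched background for this list. Gata6, a primitive endoderm factor, went from 24.5 ± 3.01 to 6.24 ± 0.67 (SD, n = 4 each), a log2 fold change of -1.89. Lhx2, Nkx2-9 and Hand1 had -1.85, -1.80 and -1.73, at control values of 5.17, 15.5 and 10.9. These 4 genes stayed below 0 with spike-in scaling, at -1.03 to -0.79, and after quantile normalisation, at -1.55 to -0.75. Of 39 Hox genes 8 had a value, none with a mean of at least 10, and 4 fell past both thresholds, against 20.6% of all genes. Among them were Hoxb4, Hoxb7 and Hoxc13, with log2 fold changes of -1.57, -1.56 and -1.23, at control values of 5.46, 3.75 and 13.4. None of the 8 passed both thresholds with spike-in scaling, and after quantile normalisation 1 rose past both and none fell. Of the target list 2 genes passed both thresholds after quantile normalisation and 4 with spike-in scaling, of which 3 were up and 1 was down. Primitive endoderm markers with a value, 3 of which also stand in the target list, fell with them, from summed values of 42.5 to 62.1 to between 17.8 and 19.9, and so did the fibroblast markers named above. Their part in these falls was not tested, and fewer cells of a type and less RNA per cell cannot be told apart in such samples.

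FACT was mapped by ChIP-seq in unperturbed mESCs, with peaks called by the authors on both replicates together and given to the nearest gene, so that no peak has a value per replicate. An SSRP1 peak was assigned to 8 of the 10 genes, against 36.0% of all genes with an RNA-seq value, and a SUPT16 peak to 6 of 10, against 18.6%. Phf19 and Pcgf6 had neither. Within 1000 bp of an annotated transcription start site (TSS), 5 genes had an SSRP1 peak (26.1% of all genes) and 5 a SUPT16 peak (15.6% of all genes). No test was made of these counts. The paper reports that FACT binding goes with active gene expression. Most of the 10 genes are well expressed, while all genes include many low ones, so these shares are not a matched background.

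**Figure D4:**
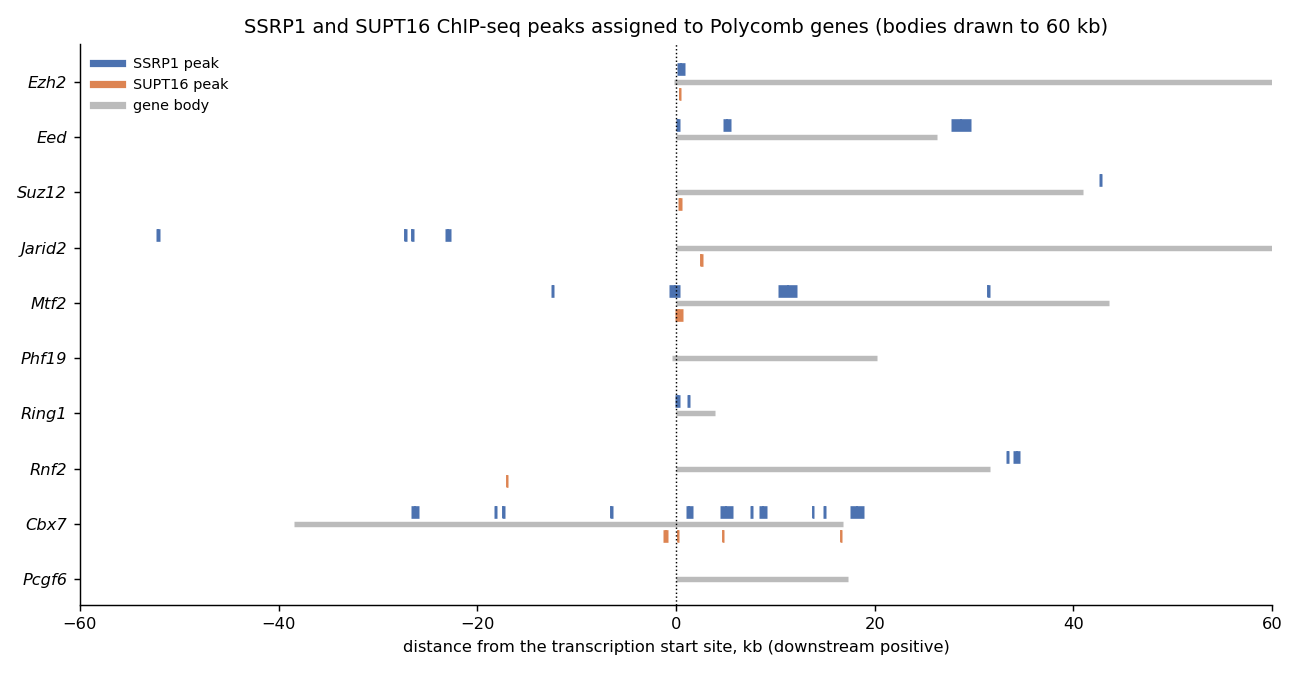
SSRP1 and SUPT16 peaks assigned to each Polycomb gene by distance from its transcription start site in kb (horizontal axis, downstream positive); grey lines are gene bodies and the narrowest peaks are drawn slightly wider than scale. Cbx7 carries 11 SSRP1 and 4 SUPT16 peaks, Mtf2 has a peak of each across its start, and Phf19 and Pcgf6 have none.

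Mtf2 was the gene with both subunits across its start. Its SSRP1 peak at chr5:108064993-108066070 (mm10, 1078 bp) and its SUPT16 peak at chr5:108065581-108066420 (840 bp) shared 490 bp, and both reached from upstream into coding exon sequence. A further SSRP1 peak of 1862 bp lay in an intron, 335 bp before an alternative TSS. At Ezh2 an 882 bp SSRP1 peak at chr6:47594093-47594974 held an annotated start and, in full, the 210 bp SUPT16 peak at chr6:47594541-47594750. Both peaks touched noncoding exon sequence and no coding sequence. Ring1, although barely expressed, had an SSRP1 peak of 588 bp across its start at chr17:34024229-34024816.

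At Eed, Suz12 and Jarid2 only 1 of the 2 FACT subunits had a peak near a start. Eed had an SSRP1 peak at chr7:89980563-89980954, starting 22 bp inside its first exon, 1 in an intron and 1 of 2058 bp beyond the end of the gene. Suz12 had a SUPT16 peak at chr11:79993271-79993690, 165 bp into the gene and touching coding sequence, while its SSRP1 peak lay 42613 bp from the start, downstream of the gene. Jarid2 had a SUPT16 peak in an intron, 173 bp before an alternative TSS, and 4 SSRP1 peaks upstream, whose near ends lay at -22.7 to -51.986 kb from the TSS. The peaks assigned to Rnf2 were at no start: the SUPT16 peak lay 16880 bp upstream and both SSRP1 peaks 33200 and 33886 bp downstream of a TSS, past the end of the gene.

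Cbx7 held 11 SSRP1 and 4 SUPT16 peaks. Of the 5542 genes with an SSRP1 peak, 35 (0.632%) had at least as many, and of the 2865 with a SUPT16 peak, 59 (2.06%) did; the median was 1 peak for both. The stretch of genome for which Cbx7 is the nearest gene was 52.1 kb, against a median of 47.3 kb for genes with an SSRP1 peak. The 11 SSRP1 peaks covered 6762 bp, from 294 to 1470 bp each, and lay along the gene and on both sides of its main start, with 1 of 686 bp in an intron 1004 bp past it. A SUPT16 peak at chr15:79932301-79932510 began 136 bp past the main start and touched coding exon sequence. SSRP1 and SUPT16 peaks overlapped at 1 place in Cbx7, by 210 bp, and over all members 3 of 9 SUPT16 peaks overlapped 1 of the 28 SSRP1 peaks.

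The bases before the starts of Mtf2, Ring1, Eed and Suz12 are shown because each of these genes has a FACT peak at or within 165 bp of that start and no annotated exon in the stretch printed. Sequences are from RefSeq (GRCm38.p6, the build of mm10), 5′ to 3′ on the strand of the gene, and capitals mark CG dinucleotides, the unit of the CpG islands that PRC2 accessory subunits bind.
Mtf2 (chr5:108065424-108065659, plus strand): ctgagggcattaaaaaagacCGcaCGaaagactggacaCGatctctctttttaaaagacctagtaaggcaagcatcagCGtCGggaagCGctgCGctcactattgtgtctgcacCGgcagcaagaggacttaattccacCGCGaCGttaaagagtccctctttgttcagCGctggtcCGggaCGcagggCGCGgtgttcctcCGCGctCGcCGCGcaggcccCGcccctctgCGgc
Ring1 (chr17:34024681-34024930, minus strand): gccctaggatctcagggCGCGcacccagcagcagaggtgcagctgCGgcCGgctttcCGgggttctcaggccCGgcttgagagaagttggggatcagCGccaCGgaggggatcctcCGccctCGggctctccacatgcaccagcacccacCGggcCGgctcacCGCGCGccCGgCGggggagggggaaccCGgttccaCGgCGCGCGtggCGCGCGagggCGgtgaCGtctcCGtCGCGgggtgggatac
Eed (chr7:89980977-89981226, minus strand): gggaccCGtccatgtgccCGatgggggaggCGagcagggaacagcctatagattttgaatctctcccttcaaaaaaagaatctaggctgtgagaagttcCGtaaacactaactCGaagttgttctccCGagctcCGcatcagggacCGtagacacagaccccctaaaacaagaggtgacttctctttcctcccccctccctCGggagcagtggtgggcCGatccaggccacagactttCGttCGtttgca
Suz12 (chr11:79992856-79993105, plus strand): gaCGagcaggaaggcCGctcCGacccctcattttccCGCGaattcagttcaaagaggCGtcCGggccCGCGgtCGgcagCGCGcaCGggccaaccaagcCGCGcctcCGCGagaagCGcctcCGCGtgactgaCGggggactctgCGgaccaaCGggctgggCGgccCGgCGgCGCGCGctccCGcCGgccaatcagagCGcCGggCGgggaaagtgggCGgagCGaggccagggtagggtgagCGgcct

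In the 236 bases of Mtf2 there are 23 CG dinucleotides, and in the 250 bases of Ring1, Eed and Suz12 there are 30, 12 and 37. The median of 32851 annotated promoters over 250 bases was 6, and that of 14696 promoters of genes with an RNA-seq value was 14. The ratio of observed to expected CG was 1.10 for Suz12, 1.05 for the main Mtf2 promoter over 250 bases, 0.890 for Ring1 and 0.652 for Eed, against a median of 0.689 in promoters of genes with a value. The alternative Mtf2 promoter, 335 bp from an SSRP1 peak, held 2 CG dinucleotides with a ratio of 0.149. At Rnf2, with no FACT peak near its start, the 250 bases held 20 CG at a ratio of 0.658. Phf19 and Pcgf6, with no FACT peak assigned, held 31 and 14 at ratios of 0.923 and 0.732. On both strands, the E-box CACGTG was found in none of the 12 promoter windows of the members (6.02% of all promoters and 8.17% of those of genes with an RNA-seq value), the ETS motif CCGGAAG in none (6.91% and 12.4%) and the E2F motif GGCGGGA in those of Suz12 and the second start of Jarid2 (9.75% and 17.05%); none of the 3 motifs contains another. No match says only that these letters are not in the window.

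In the chromatin fraction of mESCs the Polycomb transcripts differed widely in level. The 2 libraries had 3441643 and 3393923 reads on genes, of which 69.9% and 67.3% fell on the 10 genes with most reads, so few were left: 462 and 895 reads on the 10 Polycomb genes together. Mtf2 led with 155 and 291 reads, 12.5 RPM per kb, which is reads scaled to the total on genes and to exon length (95% Poisson interval 11.3 to 13.7, counting error only). Eed and Jarid2 followed at 7.74 and 7.72, then Cbx7 at 6.42, Ezh2 at 5.32 and Suz12 at 5.25, whose intervals overlap. Rnf2 was at 2.66 and Pcgf6 at 2.16. Phf19 had 3 and 5 reads and Ring1 1 and 1, which gives Ring1 an interval of 0.017 to 0.52 RPM per kb. The median over genes with an RNA-seq value was 0.698, and 8 of the 10 members lay above it. At nearly equal totals the second library held more reads for 9 of the 10 genes, among them Jarid2 with 115 and 210, Suz12 with 46 and 111, Cbx7 with 31 and 96 and Pcgf6 with 6 and 25. The levels of Mtf2 in the 2 libraries, 8.61 and 16.4, both lie outside its counting interval, so these intervals understate the spread.

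Set beside total RNA of the 4 control libraries, also per kb, the order was similar at its ends and differed in the middle. Mtf2 and Eed led total RNA with scaled values per kb of 65.5 ± 3.02 and 61.9 ± 5.83 (SD, n = 4), whose ranges overlap, and Phf19 and Ring1 came last at 4.78 ± 0.80 and 2.28 ± 0.53. Jarid2, Suz12 and Rnf2, at 51.0 ± 2.96, 44.8 ± 3.14 and 44.6 ± 2.84, overlapped each with the next, as did Ezh2 at 26.996 ± 2.56 and Pcgf6 at 26.4 ± 0.66. Cbx7, at 23.3 ± 0.99, was below Pcgf6 in every control library, yet stood above it in both chromatin libraries. Rnf2, level with Suz12 in total RNA, was below it in both chromatin libraries. Spearman's rho over the 10 genes was 0.84, which is given as a description: the points share libraries and exon lengths.

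**Figure D5:**
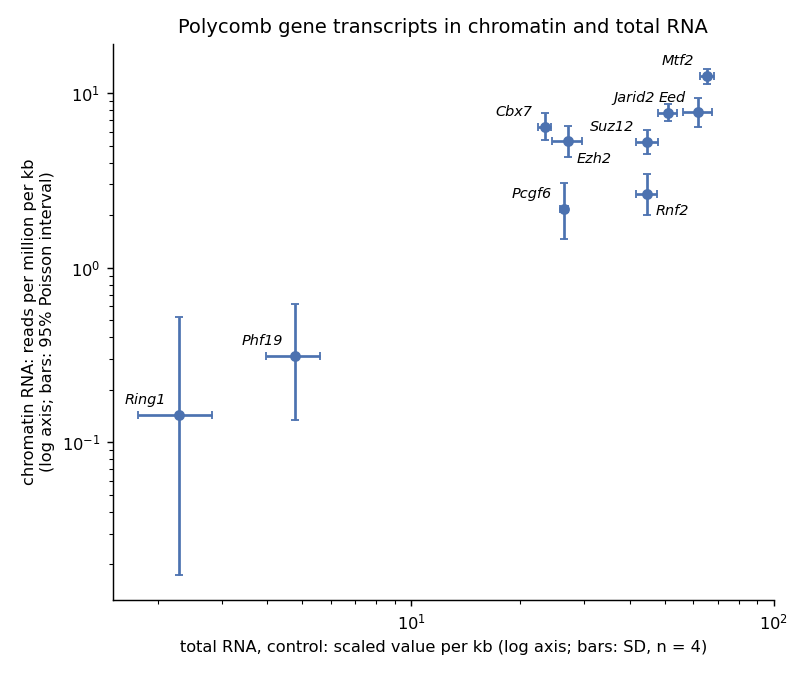
Chromatin RNA in RPM per kb (vertical log axis; bars are 95% Poisson intervals) against total RNA of control mESCs in scaled value per kb (horizontal log axis; bars are the SD, n = 4) for the 10 Polycomb genes. Mtf2 is highest in both, at 12.5 and 65.5, and Ring1 lowest, at 0.14 and 2.28.

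Over the 8 RNA-seq libraries, the genes whose pattern was most like that of Ezh2 were Mgea5, Kdm1a and Pym1, with Pearson's r of 0.999, 0.998 and 0.996 among 10765 genes with a mean value of at least 10. MGEA5 removes O-GlcNAc from proteins, KDM1A is a histone H3 lysine 4 demethylase and PYM1 frees exon junction complexes from mRNA. Mgea5 was between 130 and 159 in the control and between 198 and 201 in the KD libraries. For Rnf2 they were Polr2b, Ptk2 and Serinc1, with r of 0.975, 0.972 and 0.966. These values describe 8 points that share libraries, depth and the difference between the groups.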

How the data were processed

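E14 mouse ES cells were profiled by RNA-seq with ERCC spike-ins (4 control and 4 Ssrp1 KD libraries), by RNA-seq of the chromatin fraction (2 libraries) and by ChIP-seq for SSRP1 and SUPT16 (2 replicates each, called together). The deposited RNA-seq table holds a normalised signal per gene: reads divided by a library-size factor or, in further columns, by a spike-in factor, both set by the authors after alignment with STAR, counting with featureCounts and removal of low genes. Whole reads were recovered from it within 0.1. The deposited chromatin table holds raw counts per gene. The deposited peak lists hold positions in mm10 and the nearest gene. Other tables of the authors hold their own comparisons of genes and exons, and were not used.

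The main test was limma (3.58.1) on log2(value + 0.5) with a trended prior over all 15384 genes, which understates changes of low genes. edgeR (4.0.16) and DESeq2 (1.42.0) were run on the recovered reads. Ratios were tested by exact permutation. The scripts were tested on simulated data. Depth was 4602278 to 19856032 reads per RNA-seq library. Promoters came from RefSeq (GRCm38.p6). The Polycomb genes and all lists were chosen with earlier results of these data known. Named beyond the 10 were, of each list, the genes past both thresholds with the largest changes, and the paralogs Ezh1 and Cbx2. Some genes that this rule names are not reported here. Alternatives were other pseudocounts, filters, scalings, tools, an exon length correction, a replicate block and leaving out each library.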

Additional observations from a re-analysis of the deposited data

Results flagged for a closer look

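In groups of 4 libraries, 1 library stood apart from the other 3 for 2 of the 10 Polycomb genes by Dixon's gap ratio, past its 95% critical value. KD replicate 4 held the lowest Mtf2 value, 669.193, with a ratio of 0.855. Control replicate 1 held the highest Cbx7 value, 71.7361, with a ratio of 0.900. These are 2 of 74 groups tested (2.70%), where chance gives about 1 in 20.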

How the results depend on the processing

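Of the 10 genes, 6 kept their direction in all 23 alternatives. Some of these could not turn it, as they reuse the main fold changes: no trend, adjusted p alone, limma treat, the replicate block and the mean filter. Of 229 values 203 kept both direction and side of the thresholds, 3 (all Mtf2) lost the call, 18 gained one and 5 reversed. The thresholds were the joint fold and adjusted p, except that adjusted p alone and limma treat used no separate fold threshold, which by itself adds calls in the former. By the adjusted p alone, Ezh2 no longer passed after quantile normalisation, and Rnf2 passed after it, with spike-in scaling and without control replicate 2. The reversals were Jarid2 at -0.37 and Ring1 at 0.74 after quantile normalisation, and Phf19 at 0.78, Ring1 at 0.56 and Rnf2 at 0.87 with spike-in scaling; the ratios Ring1/Rnf2 and Ezh1/Ezh2 turned to 1.30 and 0.013 after quantile normalisation. The causes were not tested, other than that spike-in scaling moves all genes by construction. The count of all genes past the thresholds was 4405, and 2103 of the 10765 with a mean of at least 10, 8476 with spike-in scaling, 11192 by the adjusted p alone and 2097 by limma treat. Of the Polycomb genes 1 passed, and 2 with size factors on recovered reads, 2 with DESeq2, 3 with the exon length correction, 7 with spike-in scaling, 7 by the adjusted p alone, 0 after quantile normalisation and 0 by limma treat. Leaving out 1 library gave 0 to 2: 0 without control replicate 2, and 2 without control replicate 1 or KD replicate 3. Of the 45 other subunits 11 passed, and 19 with spike-in scaling, 32 by the adjusted p alone and 5 by limma treat. Of the 15 targets 9 passed, and 4 with spike-in scaling, 2 after quantile normalisation and 4 by limma treat. The filter at a mean of at least 10 left only 3 targets, of which 1 passed. SSRP1 peaks were at 5 genes within 1000 bp of a TSS and at 5 in gene bodies (31.1% of all genes), and SUPT16 peaks of at least 500 bp at 1 (6.08% of all genes). With the replicate block the all-gene count was 4405 and that of the Polycomb genes 1; same-numbered libraries correlated by only -0.057 to 0.044, not every library best with its own number, so the numbers were not read as pairs. Depth limits Ring1, with 22 to 75 reads per library, and Ring1 and Phf19 on chromatin.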
